A study of Rattus norvegicus with 30 samples.

Results

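The genes described here were those whose transcripts stood higher in rat hearts 24 h after a dose of isoproterenol and, by the limits below, at no other time sampled. They were chosen from the measured values. On the normalized log2(intensity + 16) scale, a probe set was taken when its isoproterenol mean lay at least 1 above its vehicle mean at 24 h, less than 0.4 above it at 1, 3 and 72 h, and when its isoproterenol mean at 24 h was at least 6.5. A probe set is a group of short DNA probes on the array that reports on 1 transcript. The rule took 40 of 31042 probe sets. Of these, 33 were annotated to 1 gene each, for 33 genes, 3 to several genes, and 4 were not listed in the annotation and are called by their probe set numbers. All 40 passed the filter on dim probe sets that left 24292 for testing.

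The hearts came from male Wistar Han rats, Crl:WI(Han), dosed once with isoproterenol hydrochloride, a man-made catecholamine and agonist of beta-adrenergic receptors, or with vehicle. Arrays numbered 5 for isoproterenol and 3 for vehicle at 1 h, 4 and 3 at 3 h, 4 and 3 at 24 h, and 5 and 3 at 72 h. All animals were of the same strain and sex, and no genetic change is stated in the labels; the sources used here give no age. The dose is written 0.5 mg/kg/ml in the labels and 0.5 mg in the design text, which leaves the amount per body weight unsettled; the last time is 72 h by the labels and 48 h by the design text. Every isoproterenol array has a higher array number than every vehicle array, so treatment and array order cannot be told apart. The arrays were titled biological replicates with no word on whether each was a separate animal, and the p-values cover the spread between these samples alone. The defining transcripts of heart muscle that were examined ran from the 91.66 percentile of all probe sets (Gata4) to the 99.99 (Atp2a2). Myh6 and Tnnt2 each stood at 99.97. In whole tissue, fewer cells of a type and less RNA per cell cannot be told apart.

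Cells that prepare to divide first license their replication origins: Cdt1 helps to load the ring-shaped MCM helicase, cyclin E with its kinase starts DNA synthesis, and the RFC complex places the sliding clamp PCNA on DNA. Growing cells also make more ribosomes, splicing particles and secreted or membrane proteins, whose sugar chains are built on the lipid dolichol in the endoplasmic reticulum. Beta-adrenergic stimulation of the heart is known for both growth of muscle cells and, at injuring doses, infiltration by macrophages and division of non-muscle cells.

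The member genes fell into 7 groups by known role. The 5 genes of DNA replication were Rfc5, Cdt1, Mcm7, Ccne2 and Mcm5. A mixed group of 6 genes of glycosylation, the secretory route and lipids held Cnih4, Fads3, Gmppb, Serinc2, Nus1 and Stt3b. The 5 genes of ribosomes and translation were Eif4ebp1, Cmss1, Nop16, Pa2g4 and Prmt3. Splicing was represented by Snrpf, Phf5a and Lsm2, and the Ran cycle and chromatin by Rcc1, Ran and Macroh2a1. The muscle and cytoskeleton genes were Fhl1, Msn, Hspb7 and Tpm4, and the other 7 genes were Crlf2, Fstl3, Slc6a6, Cstb, Ccdc43, Cbl and Ywhab. These groups were drawn up after the members were known.

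The promoters of 29 of the 33 genes were found in the RefSeq table of the rat build GRCr8, as 31 windows that run from 250 bases before to 50 bases after a gene's start. Eif4ebp1, Ccne2, Phf5a and Prmt3 had no entry. The windows were searched on both strands for the E2F letters TTTCGCGC, TTTGGCGC and TTTCCCGC, since E2F factors are known to control replication genes. Exactly 3 member genes held at least 1 of these words, and all 3 were replication genes: Mcm5, Mcm7 and Cdt1. The window of Rfc5, also a replication gene, held none of them. The windows of Mcm5, Mcm7 and Cdt1 are printed because they are the member promoters with this match. They run 5′ to 3′ on the gene's strand, with the matches on either strand in capitals.
Mcm5 (chr19:13488563-13488862, plus strand): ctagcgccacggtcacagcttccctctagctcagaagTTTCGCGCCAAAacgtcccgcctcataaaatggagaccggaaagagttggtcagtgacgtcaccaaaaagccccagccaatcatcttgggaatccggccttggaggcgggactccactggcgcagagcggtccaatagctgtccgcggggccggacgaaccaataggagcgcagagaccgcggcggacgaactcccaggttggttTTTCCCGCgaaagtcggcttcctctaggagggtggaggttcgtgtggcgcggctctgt
Mcm7 (chr12:22163129-22163428, minus strand): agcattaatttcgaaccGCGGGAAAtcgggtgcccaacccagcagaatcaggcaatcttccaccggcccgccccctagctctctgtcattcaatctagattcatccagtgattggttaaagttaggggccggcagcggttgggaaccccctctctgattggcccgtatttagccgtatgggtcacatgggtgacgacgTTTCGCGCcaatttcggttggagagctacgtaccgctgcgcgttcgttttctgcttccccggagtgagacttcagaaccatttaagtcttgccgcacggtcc
Cdt1 (chr19:67528999-67529298, plus strand): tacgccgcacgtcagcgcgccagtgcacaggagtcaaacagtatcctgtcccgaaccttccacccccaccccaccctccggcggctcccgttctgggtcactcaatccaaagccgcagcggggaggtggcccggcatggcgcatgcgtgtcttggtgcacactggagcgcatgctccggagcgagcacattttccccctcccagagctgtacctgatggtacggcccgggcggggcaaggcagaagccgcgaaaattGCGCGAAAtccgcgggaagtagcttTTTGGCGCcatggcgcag
In Mcm5 a forward and a reverse match shared bases 5′ of the start, and another began 8 bases before the start. In Mcm7 the matches began 233 and 52 bases before the start, and in Cdt1 both lay past the start. The words occurred in 9.68% of member windows and in 1.72% of all 33469 windows of this length, and in the promoters of 18 of the 45 other genes of a list on DNA replication and S phase that had an entry.

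Other motifs searched lay at varying shares of the member windows. The GC box GGGCGG, bound by Sp1, lay in 67.7% of member windows and 33.1% of all windows. The CRE, TGACGTCA, the site of the cAMP-responsive factor CREB, lay in 3 member promoters (Cmss1, Lsm2 and Mcm5), 9.68% of member windows and 1.83% of all windows; its core TGACG lies within it and was found in 35.5% and 21.2%. The CCAAT box, with the letters CCAAT, was found in 41.9% of member windows and 37.5% of all windows. The letters GAGGAA, bound by the myeloid factor PU.1, were found in 32.3% of member windows and 27.6% of all windows, and TTTGAA, the CHR word of mitotic genes, in 6.45% and 18.3%. The AP-1 word TGANTCA was found in no member window and in 7.33% of all windows. No member window held the words searched for NF-kB, SRF, ISRE (interferon), HSE (heat shock), ERSE and UPRE (unfolded protein) or AARE (amino acid shortage). Each of those lay in 0.06% to 3.98% of all windows. The E-box CACGTG lay in 9.68% of member windows and 6.42% of all, and the TEAD word GGAATG in 6.45% and 14.2%. The windows of all genes were not matched to the members by expression or base content. All of these are matches of letters and not binding sites.

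**Figure D1:**
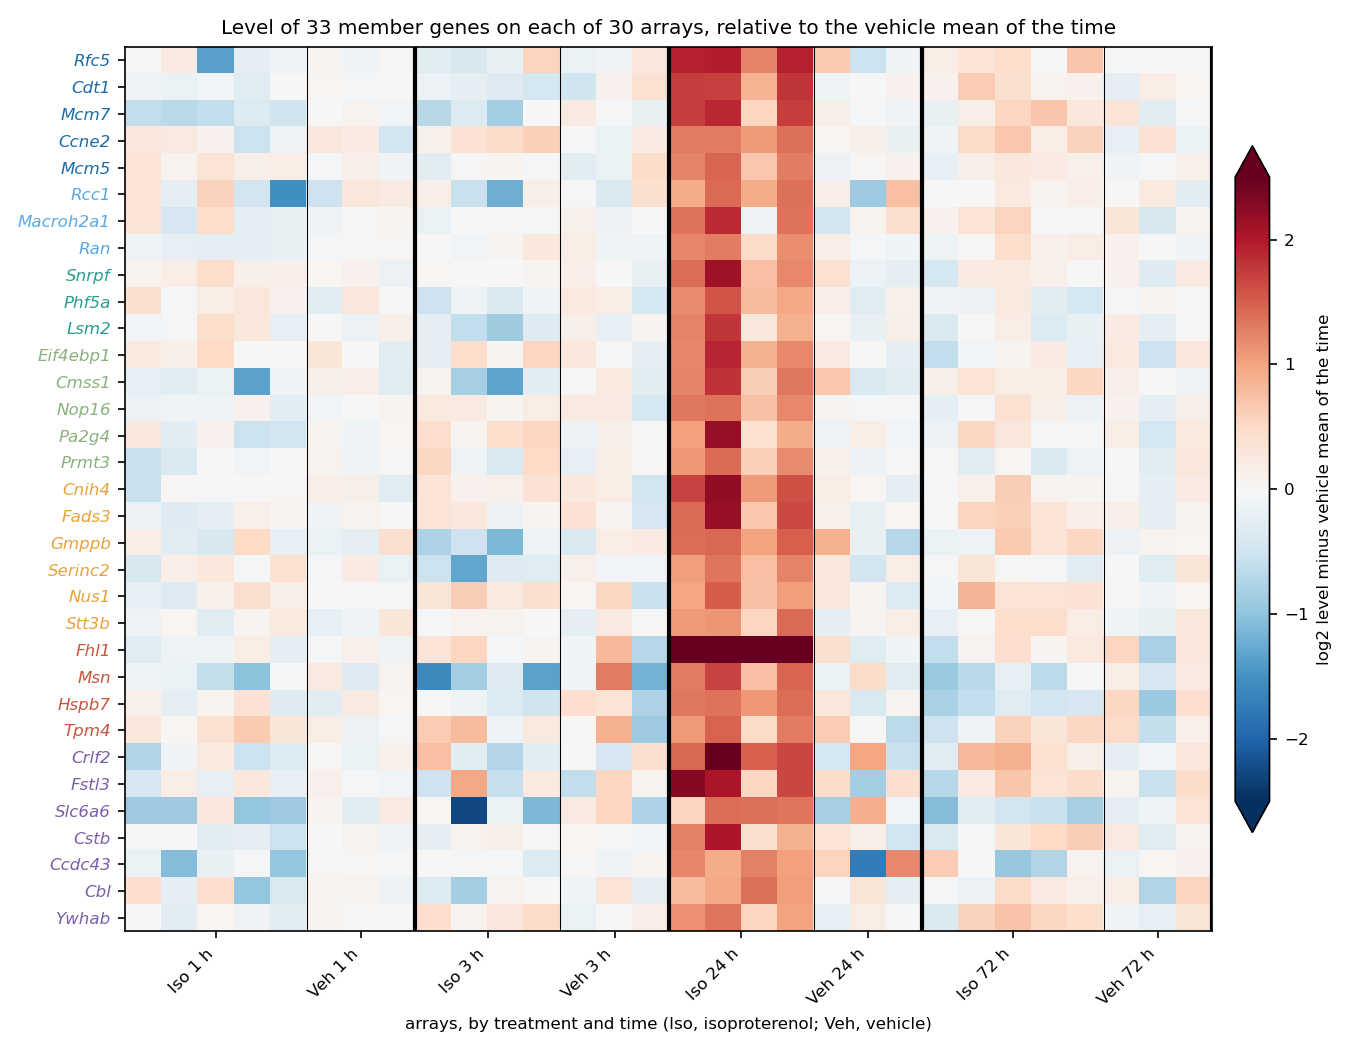
Level of the 33 member genes on each of the 30 arrays, as the normalized log2 level minus the vehicle mean of the same time. Rows are coloured by role group and columns are arrays. Colours beyond 2.5 on either side are drawn at the end of the scale (Fhl1, and Crlf2 on replicate 2, in isoproterenol arrays of 24 h). The 4 isoproterenol arrays of 24 h form the red block, with the replicate 3 column paler than the others in most rows.

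At 24 h the members lay between 1.00 and 3.23 above vehicle on the log2 scale, with a median of 1.16. Of the 40, 33 lay between 1 and 1.5, 7 lay over 1.5, and 2 lay over 2. At 1 h their median difference was -0.11, at 3 h -0.03 and at 72 h 0.14. The rule set no lower limit at those times: 27 of the 40 stayed within 0.4 of vehicle in either direction at all 3, while 13 lay more than 0.4 below vehicle at 1 or more of them. At 72 h 29 members were still above vehicle, 7 of them by over 0.3. In the limma fit over all probe sets, 36 of the 40 passed an adjusted p of 0.05 at 24 h; 7.33% of all probe sets tested passed in that direction, and since the rule used the same contrast nothing is read from the count. None passed at 1, 3 or 72 h, where 2.65%, 11.4% and 17.9% of all tested passed in either direction. The rule kept upward differences below 0.4 at those times, so nothing is read from this either.

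The members were a small share of what stood high at 24 h. Of 575 probe sets that met the 24 h difference and the level limit, 485 lay at least 0.4 above vehicle at 72 h too, 281 of them at 72 h and not earlier. A further 50 lay at least 0.4 above vehicle at 1 or 3 h and not at 72 h. Just inside the 24 h limit were Ywhab at 1.002, Stt3b at 1.03 and probe set 1388206_a_at at 1.031, and just outside were Mapre1 at 0.997, Dapk3 at 0.989 and Tmem258 at 0.986. Mapre1, whose protein binds microtubule ends, read 7.75, 8.07, 7.40 and 8.09 in isoproterenol hearts, against 7.16, 6.94 and 6.40 in vehicle hearts. Dapk3, a protein kinase, read 8.71, 9.57, 8.40 and 8.91 in isoproterenol hearts, against 8.11, 7.66 and 7.96 in vehicle hearts. Tmem258, a subunit of the oligosaccharyltransferase, read 10.32, 10.77, 9.94 and 9.90 in isoproterenol hearts, against 9.24, 9.25 and 9.25 in vehicle hearts. The groups of these 3 genes did not overlap either. At the 72 h limit, Crlf2, with a difference of 0.388 at 72 h, was inside and a probe set of Kpnb1 at 0.414 was outside.

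**Figure D2:**
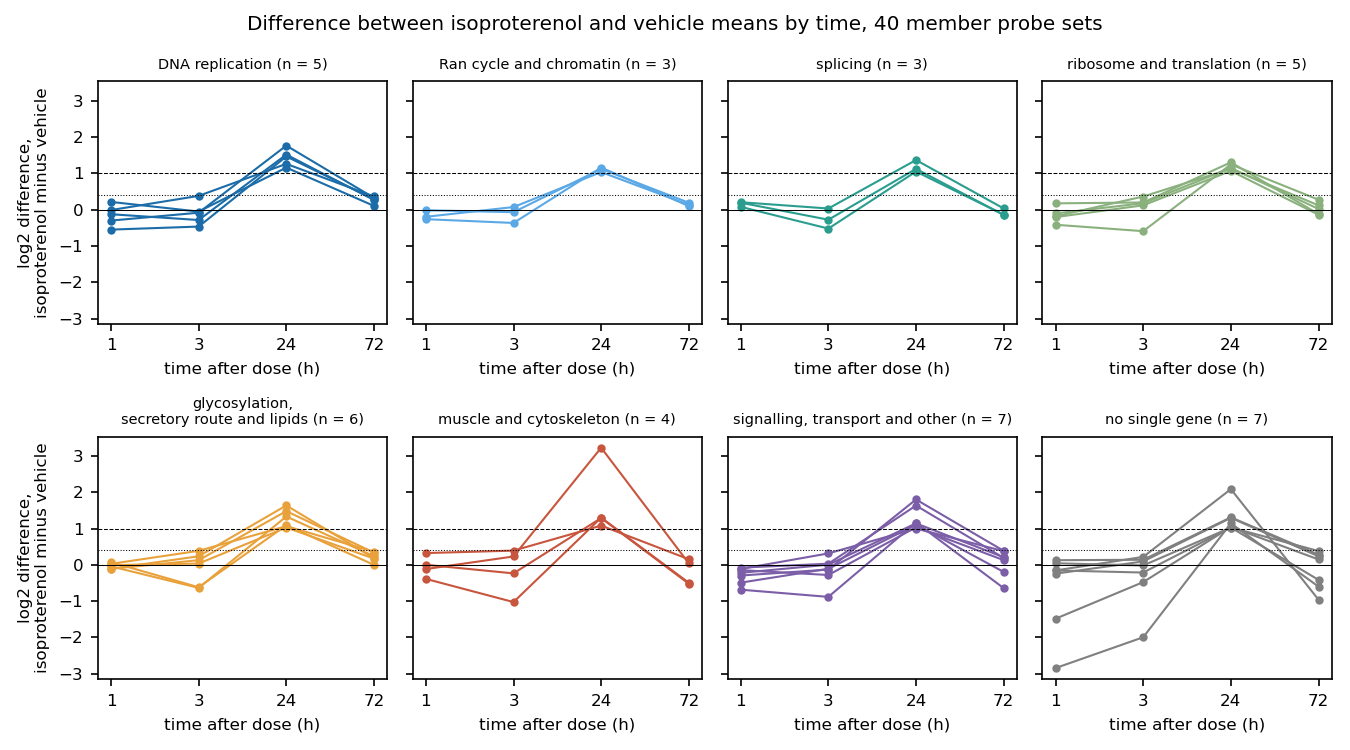
Difference between the isoproterenol mean and the vehicle mean (log2) at 1, 3, 24 and 72 h after the dose for the 40 member probe sets, 1 line each, by role group; times are evenly spaced, the dashed line marks 1 and the dotted line 0.4. Every line peaks at 24 h, Fhl1 highest at 3.23, and 2 probe sets of no single gene lie below -1 at 1 h.

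Of the replication genes, the clamp loader subunit Rfc5 was furthest above the vehicle mean of 24 h. That vehicle mean was 5.05, against 5.85 over the vehicle arrays of the other times. Set against the vehicle arrays of all times together, the 24 h isoproterenol mean of Rfc5 stood 1.17 higher. On that footing Cdt1 stood at 1.54, Ccne2 at 1.33, Mcm7 at 1.28 and Mcm5 at 1.02, so Rfc5 did not lead. Rfc5 read 6.99, 7.01, 6.29 and 6.99 in isoproterenol hearts of replicates 1 to 4, against 5.70, 4.51 and 4.95 in vehicle hearts of replicates 1 to 3, a difference of 1.77 ± 0.29 (limma standard error, 3.4-fold). Replicate 3 of isoproterenol was the lowest of its group and still above all vehicle arrays. The licensing factor Cdt1 read 7.77, 7.76, 6.92 and 7.84 in isoproterenol hearts, against 5.95, 6.04 and 6.17 in vehicle hearts, a difference of 1.52 ± 0.21. Mcm7, a helicase subunit, read 8.75, 8.91, 7.57 and 8.76 in isoproterenol hearts, against 7.17, 6.98 and 6.94 in vehicle hearts, a difference of 1.47 ± 0.24. In both genes 3 isoproterenol arrays lay close together and replicate 3 lay apart below them, without overlap with vehicle. Mcm7 lay -0.55 from vehicle at 1 h and -0.46 at 3 h. Cyclin E2, from Ccne2, which activates the kinase Cdk2 at the start of S phase, read 6.86, 6.88, 6.64 and 6.95 in isoproterenol hearts, against 5.61, 5.72 and 5.38 in vehicle hearts, a difference of 1.26 ± 0.22. Mcm5, the other helicase subunit, read 7.72, 7.95, 7.16 and 7.76 in isoproterenol hearts, against 6.34, 6.52 and 6.60 in vehicle hearts, a difference of 1.16 ± 0.18. The isoproterenol arrays of Ccne2 were among the closest of any member, with an SD of 0.13. Another Ccne2 probe set, 1391681_at, lay 0.04 from vehicle at 24 h, and another of Rfc5, 1392589_at, 0.79. At 72 h these genes were not at the vehicle level exactly: Ccne2 lay 0.36, Rfc5 0.33, Mcm7 0.29, Cdt1 0.27 and Mcm5 0.11 above it.

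The list on DNA replication and S phase held 53 other measured genes, which the rule did not take. At 24 h 26 of the 53 rose and none fell, with 27 not passing, and their median difference was 0.72, against -0.02 over all probe sets tested, of which 7.33% rose. Mcm6, another subunit of the same helicase, rose to 8.16 ± 0.50 in isoproterenol hearts, against 6.28 ± 0.27 in vehicle hearts (SD, n = 4 and 3), by 1.88 ± 0.25 (limma adjusted p = 9.38e-06). It stood 1.05 above vehicle at 72 h. Prim1, the primase subunit, rose by 1.58 ± 0.25 (limma adjusted p = 9.05e-05) and stood 0.96 above vehicle at 72 h. Hells, a chromatin remodelling helicase of dividing cells, rose by 1.77 ± 0.29 (limma adjusted p = 0.000127) and stood 0.21 above vehicle at 72 h. At 72 h 10 of the 53 rose and 2 fell, against 9.37% rising among all tested. The effect at 72 h was smaller than at 24 h by the limma test of that difference for 2 of the 53, Hells (-1.56 ± 0.40, adjusted p = 0.0317) and Pold2, a subunit of DNA polymerase delta (-0.95 ± 0.24, adjusted p = 0.0293); 0.795% of all tested passed in that direction. The 46 measured genes for mitosis and cytokinesis, none of them a member, rose in 21 cases at 24 h and in 25 at 72 h, with none falling; 8.56% of all tested fell at 72 h and 5.7% at 24 h. Among them, the cyclin Ccna2 rose by 2.10 ± 0.38 (limma adjusted p = 0.000418), the kinase subunit Cks2 by 1.79 ± 0.35 (limma adjusted p = 0.000985) and the condensin subunit Smc2 by 1.27 ± 0.26 (limma adjusted p = 0.00128). The count of rising replication genes was 16 to 17 without isoproterenol replicate 2 or 4 or vehicle replicate 2 or 3 of 24 h.

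**Figure D3:**
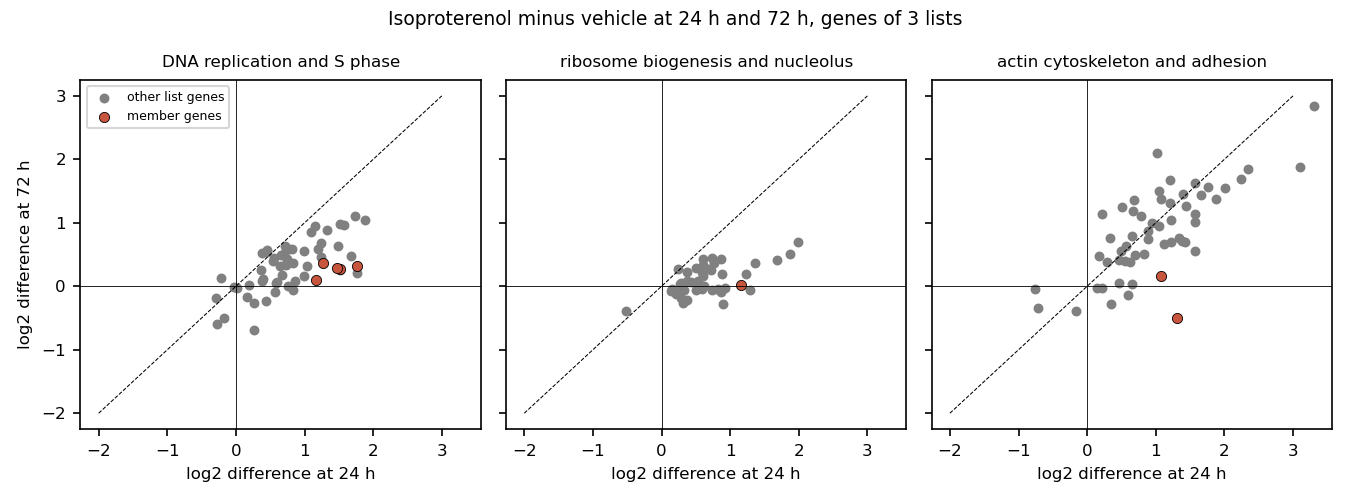
Log2 difference between isoproterenol and vehicle means at 24 h (horizontal) and 72 h (vertical) for measured genes of 3 lists, 1 point a gene, red for member genes and grey for the others; the dashed line marks equal differences. Member genes sit at 1 or more on the horizontal axis and below 0.4 on the vertical axis because the rule placed them there, while S100a4 of the actin list lies near the top right at 3.30 and 2.85.

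Ran, the small GTPase that drives transport through nuclear pores, read 11.83, 11.89, 11.07 and 11.77 in isoproterenol hearts, against 10.77, 10.55 and 10.49 in vehicle hearts, a difference of 1.04 ± 0.15. Rcc1, which sits on chromatin and loads Ran with GTP, averaged 6.83 ± 0.27 in isoproterenol hearts and 5.67 ± 0.85 in vehicle hearts (SD, n = 4 and 3). Its vehicle arrays were spread more widely than its isoproterenol arrays, and without vehicle replicate 2 its difference was 0.70 in place of 1.16. Set against the vehicle arrays of all times together, the isoproterenol mean of Rcc1 at 24 h stood 0.52 higher. Macroh2a1, a histone variant, read 8.13, 8.65, 6.70 and 8.14 in isoproterenol hearts, against 6.30, 6.87 and 7.17 in vehicle hearts. Replicate 3 of isoproterenol fell within the vehicle arrays, so the groups overlapped. Another Macroh2a1 probe set, 1391627_at, lay -0.27 from vehicle at 24 h. Among 7 other genes of the Ran cycle, picked after the members were seen, 6 lay above vehicle at 24 h, with a median of 0.19: the GTPase activator Rangap1 lay 1.42 above and the import receptor Kpnb1 1.24, while Ranbp2, of the nuclear pore, lay -0.27 from vehicle.

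The splicing members belong to the rings and particles that assemble on small nuclear RNAs. Snrpf, an Sm ring protein, read 10.11, 10.83, 9.47 and 9.90 in isoproterenol hearts, against 9.09, 8.57 and 8.47 in vehicle hearts, a difference of 1.37 ± 0.21. Phf5a, a subunit of the SF3b complex that recognises the branch point, averaged 8.80 ± 0.34 in isoproterenol hearts and 7.67 ± 0.26 in vehicle hearts. Lsm2, a subunit of the related LSm ring, averaged 8.11 ± 0.64 in isoproterenol hearts and 7.06 ± 0.17 in vehicle hearts. All 3 had their highest value in replicate 2 and their lowest in replicate 3, without overlap with vehicle. Of all probe sets tested, 10.6% showed such a separation, and the rule used these arrays, so nothing is read from it. Of 11 other Sm and LSm genes, also picked after the members were seen, all 11 lay above vehicle at 24 h, by 0.11 to 1.16 with a median of 0.61, and their median was -0.13 at 72 h. Of 6 other SF3b genes, all 6 lay above vehicle at 24 h with a median of 0.27.

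Eif4ebp1, whose protein binds the cap-binding factor eIF4E and holds back translation, read 9.24, 9.94, 8.92 and 9.23 in isoproterenol hearts, against 8.25, 8.02 and 7.80 in vehicle hearts, a difference of 1.31 ± 0.23. Nop16, a nucleolar protein needed for the large ribosomal subunit, averaged 9.10 ± 0.29 in isoproterenol hearts and 7.95 ± 0.06 in vehicle hearts. Pa2g4, a growth-regulated protein that binds ribosomes, averaged 9.15 ± 0.75 in isoproterenol hearts and 8.02 ± 0.16 in vehicle hearts. Pa2g4 was high in replicate 2 in particular, and its difference from vehicle without that array was 0.78. Prmt3, a methyltransferase of a small-subunit ribosomal protein, averaged 6.83 ± 0.34 in isoproterenol hearts and 5.77 ± 0.14 in vehicle hearts. Cmss1, known from a yeast relative tied to the small ribosomal subunit, averaged 6.66 ± 0.49 in isoproterenol hearts and 5.41 ± 0.59 in vehicle hearts, with overlap between replicate 3 of isoproterenol and replicate 1 of vehicle.

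Other genes of ribosome biogenesis rose at 3 h as well as at 24 h. Of 44 such genes other than Nop16, 23 rose and 1 fell at 3 h, where 6.11% of all tested rose and 5.28% fell, and 19 rose and none fell at 24 h. At 72 h 1 rose. Nhp2, of the particles that modify ribosomal RNA, rose by 1.87 ± 0.20 at 24 h (limma adjusted p = 8.54e-07) and stood 0.36 above vehicle at 3 h. Its 72 h effect was -1.36 ± 0.28 relative to that at 24 h (limma adjusted p = 0.00836). Fbl, the ribosomal RNA methyltransferase fibrillarin, rose by 1.68 ± 0.21 (limma adjusted p = 5.60e-06), and Ebna1bp2, a nucleolar factor of the large subunit, by 1.36 ± 0.20 (limma adjusted p = 5.44e-05). In all, 7 of the 44 had a smaller effect at 72 h than at 24 h by the test of the difference. Without isoproterenol replicate 3, 30 of the 44 rose at 24 h. Of 24 protein synthesis factors other than Eif4ebp1, 13 rose and none fell at 24 h, among them Eef1b2, of the elongation factor 1 complex, by 1.25 ± 0.19 (limma adjusted p = 5.51e-05), the helicase Eif4a1 by 1.42 ± 0.21 (limma adjusted p = 5.73e-05) and Eef1e1 by 0.96 ± 0.16 (limma adjusted p = 0.00026). In lists with no member at all, 18 of 37 genes of aminoacyl-tRNA synthesis and amino acid supply rose at 24 h. So did 8 of 24 of nucleotide synthesis and 8 of 38 of the proteasome, and none fell. Of all probe sets tested, 7.33% rose and 5.7% fell. Among other lists with no member, 16 of 32 lysosome and phagocytosis genes rose and 1 fell. Fewer rose in sterol and fatty acid synthesis (3 of 26, 2 fell), glycolysis and hypoxia (3 of 23, 3 fell) and interferon response (2 of 28, 1 fell). In mitochondrial import and translation none of 23 rose and 1 fell.

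The secretory members serve different steps. Cnih4, a cargo receptor for export from the endoplasmic reticulum, read 9.06, 9.58, 8.42 and 8.95 in isoproterenol hearts, against 7.54, 7.40 and 7.14 in vehicle hearts, a difference of 1.64 ± 0.21. Fads3, of the fatty acid desaturase family, read 9.31, 10.09, 8.59 and 9.57 in isoproterenol hearts, against 8.04, 7.72 and 7.96 in vehicle hearts, a difference of 1.48 ± 0.23. In both genes the 4 isoproterenol arrays lay above all vehicle arrays and were spread over 1.16 and 1.51 from lowest to highest. Gmppb, which makes the mannose donor GDP-mannose, read 6.57, 6.60, 6.17 and 6.66 in isoproterenol hearts, against 6.06, 4.99 and 4.46 in vehicle hearts, a difference of 1.33 ± 0.30. Here the vehicle arrays were the scattered group, and the highest of them came near the lowest isoproterenol array. Nus1, a subunit of the enzyme that makes the dolichol chain, averaged 7.99 ± 0.32 in isoproterenol hearts and 6.92 ± 0.32 in vehicle hearts. Other probe sets of Nus1, 1372763_at and 1373620_at, lay -0.36 and 0.33 from vehicle at 24 h. Stt3b, a catalytic subunit of the oligosaccharyltransferase, read 8.07, 8.11, 7.54 and 8.43 in isoproterenol hearts, against 6.76, 7.07 and 7.20 in vehicle hearts. Serinc2, of the serine incorporator family, read 6.95, 7.24, 6.65 and 7.16 in isoproterenol hearts, against 6.19, 5.45 and 6.09 in vehicle hearts. None of these 6 had overlapping groups, where 10.6% of all probe sets tested showed such a separation. Nothing is read from that count since the rule used these arrays.

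Of 8 other genes of dolichol and mannose supply, picked after the members were seen, 6 lay above vehicle at 24 h, with a median of 0.06; Dhdds, the partner of Nus1 in its enzyme, lay -0.24 from vehicle. Of 65 genes of folding and secretion in the endoplasmic reticulum, none of them a member, 36 rose and 1 fell at 24 h. Sdf2l1, a folding factor, rose by 1.76 ± 0.24 (limma adjusted p = 2.09e-05), Pdia6, a disulfide isomerase, by 0.93 ± 0.15 (limma adjusted p = 0.000152) and Sec61b, of the translocon, by 1.86 ± 0.32 (limma adjusted p = 0.000283). No gene of that list passed the test of a difference between the 72 h and 24 h effects.

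Fhl1, a LIM-domain protein of the sarcomere known to respond to load on the heart muscle, was the member furthest from vehicle. It read 10.99, 11.40, 10.68 and 11.72 in isoproterenol hearts, against 8.37, 7.67 and 7.86 in vehicle hearts, a difference of 3.23 ± 0.29, or 9.38-fold. The lowest isoproterenol array lay 2.31 above the highest vehicle array, and without the highest array the difference was 3.06. At 1, 3 and 72 h the difference was -0.11, 0.23 and 0.04. Another probe set of Fhl1, 1372107_at, averaged 13.17 ± 0.05 in isoproterenol hearts and 11.82 ± 0.10 in vehicle hearts at 24 h, a difference of 1.35, and lay 0.69 above vehicle at 3 h and 0.64 at 72 h. The 2 probe sets therefore disagreed on whether Fhl1 was raised at 24 h alone. A further one, 1394750_at, was too dim to be tested. The related genes Fhl2 and Fhl3 lay -0.18 and 0.11 from vehicle at 24 h.

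Hspb7, a small heat shock protein of heart muscle, read 10.89, 10.95, 10.67 and 10.98 in isoproterenol hearts, against 9.87, 9.20 and 9.68 in vehicle hearts, a difference of 1.29 ± 0.26. Its isoproterenol arrays were close, with an SD of 0.14, and at 72 h it lay -0.52 from vehicle. The vehicle arrays of 72 h had an SD of 0.81, and the highest vehicle array of 3 h read 10.85. Set against the vehicle arrays of all times together, its isoproterenol mean at 24 h stood 0.88 higher. Another Hspb7 probe set with a stronger signal, 1372649_at, differed by 0.37 at 24 h and by -0.06 at 72 h. Hspb1, another small heat shock protein and not a member, rose by 1.58 ± 0.25 at 24 h (limma adjusted p = 9.02e-05), stood 1.10 above vehicle at 3 h, and its 72 h effect was -1.30 ± 0.34 relative to that at 24 h (limma adjusted p = 0.0384). Of 6 small heat shock genes other than Hspb7, picked after the members were seen, Hspb1 alone lay at least 1 above vehicle at 24 h, and the median of the 6 was 0.21. Cryab, Hspb3 and Hspb6 lay 0.08, 0.11 and -0.09 from vehicle. Of 29 cytosolic chaperone genes on its list, 11 rose and 1 fell at 24 h. Moesin, from Msn, links actin to the cell membrane and read 6.52, 6.91, 5.96 and 6.68 in isoproterenol hearts, against 5.05, 5.67 and 4.92 in vehicle hearts. It lay -1.02 from vehicle at 3 h and -0.49 at 72 h, whereas another Msn probe set, 1371575_at, lay 1.46 above vehicle at 24 h and 0.50 above it at 72 h. Tpm4, a tropomyosin of the non-muscle cytoskeleton, averaged 9.24 ± 0.43 in isoproterenol hearts and 8.16 ± 0.64 in vehicle hearts, and its groups overlapped. Another Tpm4 probe set with a stronger signal, 1371653_at, lay 0.58, 0.74, 0.85 and 0.82 above vehicle at 1, 3, 24 and 72 h, so the 2 probe sets disagreed on when Tpm4 was raised.

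Of 54 other genes of the actin cytoskeleton and adhesion, 40 rose and 2 fell at 24 h, and 42 rose and none fell at 72 h. S100a4, a calcium-binding protein of motile cells, rose by 3.30 ± 0.38 (limma adjusted p = 1.98e-06), the actin cross-linker Flnc by 1.57 ± 0.19 (limma adjusted p = 3.40e-06) and the leukocyte bundling protein Lcp1 by 2.01 ± 0.27 (limma adjusted p = 1.12e-05). Of 21 hypertrophy and fetal cardiac genes other than Fhl1, 12 rose and 1 fell at 24 h. Csrp3, another LIM protein of heart muscle, rose by 0.81 ± 0.10 (limma adjusted p = 4.44e-06) and its 72 h effect was -0.63 ± 0.14 relative to that at 24 h (limma adjusted p = 0.0119). The natriuretic peptide gene Nppa rose by 2.75 ± 0.51 (limma adjusted p = 0.000568) and stood 2.90 above vehicle at 72 h.

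Crlf2, a subunit of the receptor for the cytokine TSLP, read 6.46, 7.61, 6.52 and 6.70 in isoproterenol hearts, against 4.58, 6.01 and 4.46 in vehicle hearts, a difference of 1.80 ± 0.35. Replicate 2 of both groups was the high one, and the groups stayed apart. The isoproterenol mean of Crlf2 was 6.82 at 24 h and 6.85 at 72 h. Its vehicle mean was 5.02 at 24 h, against 6.35 over the vehicle arrays of the other times. Set against the vehicle arrays of all times together, its isoproterenol mean at 24 h stood 0.81 higher. Fstl3, a secreted protein that binds activins and myostatin, read 7.30, 7.06, 5.54 and 6.69 in isoproterenol hearts, against 5.46, 4.14 and 5.43 in vehicle hearts, a difference of 1.64 ± 0.40. Replicate 3 of isoproterenol came close to the upper vehicle arrays. Another Fstl3 probe set, 1379440_at, differed by 2.26 at 24 h and already by 0.90 at 3 h. Inhba and Inhbb, which encode activin subunits, lay 1.53 and 1.37 above vehicle at 24 h and 2.26 and 2.43 above it at 3 h. Of 4 other genes of activin ligands and antagonists, Inhba and Inhbb among them, picked after the members were seen, 3 lay above vehicle at 24 h, while Gdf11, a related ligand, lay -0.64 from vehicle.

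Cstb, an inhibitor of lysosomal cathepsins, averaged 10.40 ± 0.69 in isoproterenol hearts and 9.25 ± 0.43 in vehicle hearts. Cbl, a ubiquitin ligase for growth factor receptors, averaged 6.75 ± 0.25 in isoproterenol hearts and 5.72 ± 0.27 in vehicle hearts. Replicate 3 was its highest isoproterenol array. Over the vehicle arrays of the other times Cbl averaged 6.65. Set against the vehicle arrays of all times together, its isoproterenol mean at 24 h stood 0.34 higher. The other 3 Cbl probe sets, 1379603_at, 1380069_at and 1388505_at, lay 0.37, 0.14 and 0.13 above vehicle. Ywhab, the 14-3-3 adaptor protein beta, read 9.64, 9.83, 9.02 and 9.49 in isoproterenol hearts, against 8.29, 8.67 and 8.51 in vehicle hearts. The groups of Cstb, Cbl and Ywhab did not overlap, as for 10.6% of all probe sets tested. Nothing is read from this separation since the rule used these arrays. Another Ywhab probe set, 1398800_at, differed by 0.11. Slc6a6, the taurine transporter, read 6.29, 7.12, 7.10 and 7.06 in isoproterenol hearts, against 4.90, 6.62 and 5.65 in vehicle hearts, and Ccdc43, a coiled-coil protein, read 8.31, 8.02, 8.36 and 8.13 in isoproterenol hearts, against 7.65, 5.34 and 8.29 in vehicle hearts. In both the groups overlapped and the limma threshold was not passed. For Ccdc43 the difference came with 1 vehicle array, replicate 2, far below the other vehicle arrays, and the 4 isoproterenol arrays had an SD of 0.16. The Ccdc43 difference was 0.24 when that array was left out and 1.71 when vehicle replicate 3 was. For Slc6a6, leaving out vehicle replicate 1 gave 0.75. Set against the vehicle arrays of all times together, its isoproterenol mean at 24 h stood 0.36 higher.

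Among the probe sets without a single gene, 1379497_at read 5.71, 9.25, 5.79 and 6.55 in isoproterenol hearts, against 4.15, 4.49 and 5.57 in vehicle hearts, a difference of 2.09. Replicate 2 stood far above the other isoproterenol arrays, giving the widest spread of any member, and without it the difference was 1.28. Probe set 1388985_at read 8.67, 10.09, 7.65 and 8.90 in isoproterenol hearts, against 8.22, 7.43 and 6.93 in vehicle hearts, with overlap, and 1374432_at read 8.25, 8.09, 7.77 and 8.06 in isoproterenol hearts, against 6.62, 6.77 and 6.81 in vehicle hearts, with none. Probe set 1375343_at read 9.61, 8.65, 9.08 and 8.74 in isoproterenol hearts, against 6.62, 7.15 and 9.86 in vehicle hearts. Its highest vehicle array lay above every isoproterenol array, and at 1 and 3 h it lay -2.84 and -1.99 from vehicle. Leaving out vehicle replicate 1 gave a 24 h difference of 0.52, and leaving out vehicle replicate 3 gave 2.14. Probe set 1387402_at, annotated to several genes, read 6.79, 7.52, 5.64 and 6.92 in isoproterenol hearts, against 6.11, 5.45 and 5.46 in vehicle hearts, with overlap. Probe set 1388206_a_at read 7.92, 8.36, 7.64 and 8.50 in isoproterenol hearts, against 7.47, 6.58 and 7.18 in vehicle hearts, and 1384714_x_at differed by 1.03, without overlap in either. The 4 members that did not pass the limma threshold were Slc6a6, Ccdc43, 1375343_at and 1387402_at.

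**Figure D4:**
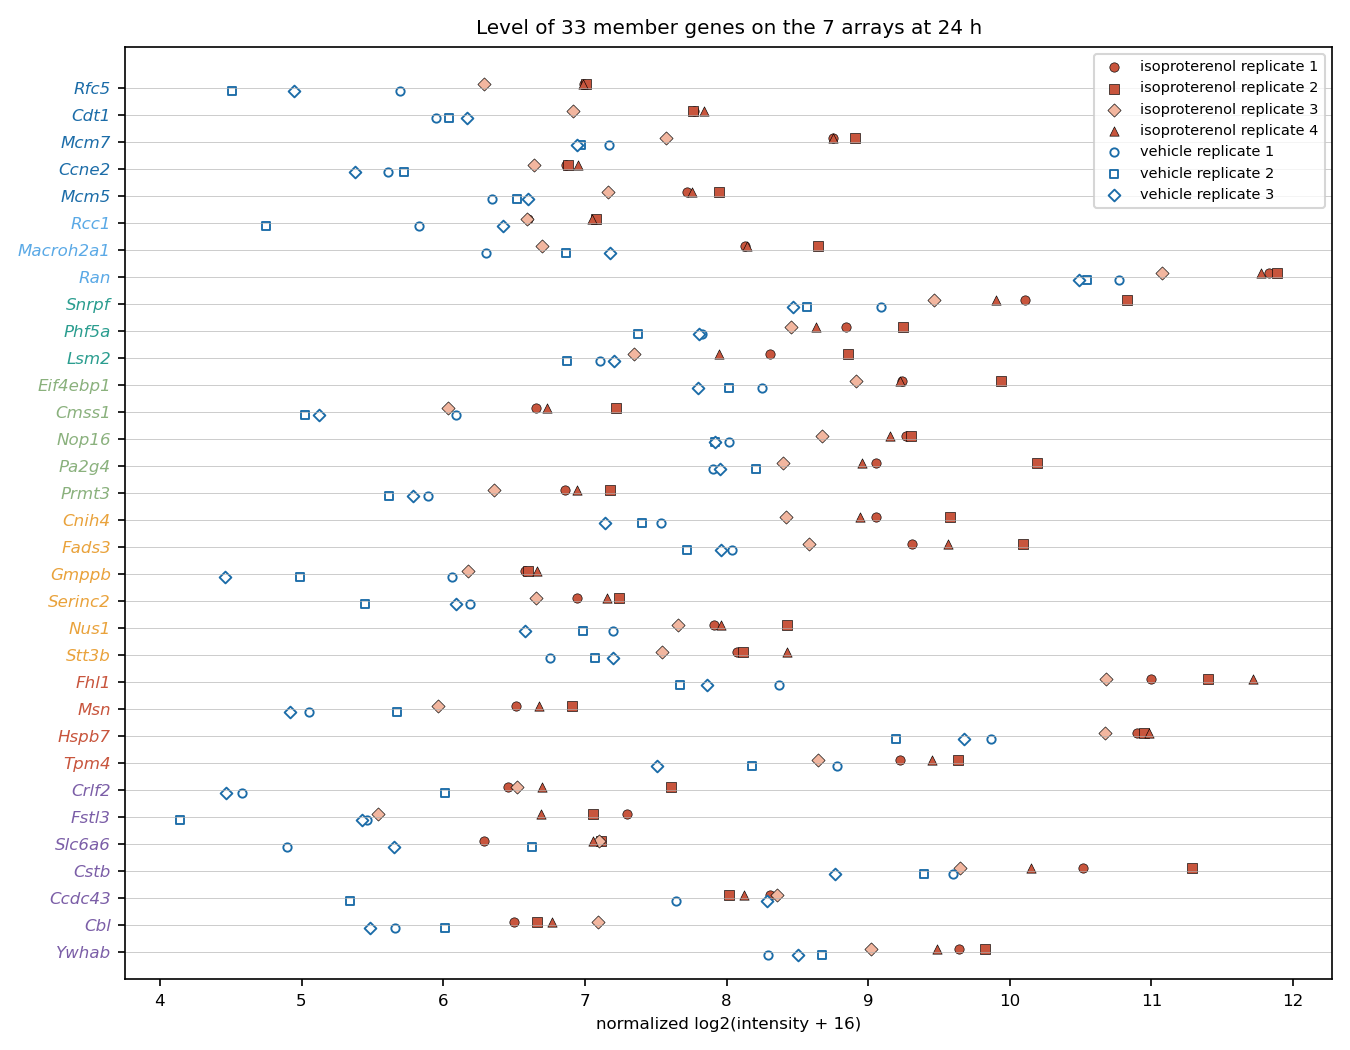
Normalized log2(intensity + 16) of the 33 member genes on the 7 arrays at 24 h, filled symbols for the 4 isoproterenol arrays and open symbols for the 3 vehicle arrays, symbol shape by replicate number. The pale diamonds of isoproterenol replicate 3 are the leftmost filled symbols in most rows, and the squares of replicate 2 the rightmost.

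The 4 isoproterenol arrays of 24 h differed in how far the members stood above vehicle. All 4 lay above all 3 vehicle arrays for 32 of the 40 members, where 10.6% of all probe sets tested showed such a separation, and nothing is read from that count since the rule used these arrays. Replicate 3 was the lowest of the 4 for 34 members and replicate 2 the highest for 28. The median level of the 40 members was 8.19, 8.54, 7.61 and 8.14 on isoproterenol replicates 1 to 4, against 6.93, 6.87 and 7.04 on vehicle replicates 1 to 3. A member stood at least 1 above its vehicle mean in 34, 37, 13 and 33 cases on isoproterenol replicates 1 to 4. Without its highest isoproterenol array, 23 of the 40 members still reached a difference of 1. The SD over the 4 arrays had a median of 0.42 for the members, 0.35 for the 1781 probe sets that rose at 24 h and 0.25 for all tested.

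The order of the arrays was shared with other probe sets. Among the 1781 that rose at 24 h, replicate 3 was the lowest of the 4 in 87.9% and replicate 2 the highest in 65.4%, while among all tested these shares were 33.4% and 29.4%. By role, replicate 3 was lowest for all replication, Ran cycle and chromatin, splicing, ribosome and translation, secretory, and muscle and cytoskeleton genes named above, and for 3 of the 7 signalling, transport and other genes. Exceptions were Crlf2, Slc6a6 and Cbl, lowest in replicate 1, and Ccdc43, lowest in replicate 2. The closest agreement was in Ccne2 with an SD of 0.13, Hspb7 with 0.14, Ccdc43 with 0.16, 1374432_at with 0.20 and Gmppb with 0.22. The widest spread was in 1379497_at with 1.66, 1388985_at with 1.00, Macroh2a1 with 0.84, Fstl3 with 0.78 and 1387402_at with 0.78.

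Other measures shared some of that order: replicate 3 was at the end of the isoproterenol arrays nearest to vehicle in each measure given here, while replicate 2 was at the other end in some of them. The summed intensity of the 35 tested genes of a 38-gene monocyte and macrophage list, of which 24 rose at 24 h, was 13710, 21200, 7004 and 14800 on isoproterenol replicates 1 to 4, against 4844, 3590 and 2959 on vehicle replicates 1 to 3. Replicates 3 and 2 were thus the lowest and the highest isoproterenol arrays in this sum as well. The median deposited intensity of the arrays was 57.7, 70.1, 35.2 and 70.4 on isoproterenol replicates, against 49.3, 29.9 and 29.7 on vehicle replicates, so that replicate 4 was the highest by a small margin. The difference between the 3′ and 5′ beta-actin control probe sets, which grows as RNA is degraded or copied incompletely, was 0.86, 0.55, 1.40 and 0.68 on isoproterenol replicates, against 1.37, 1.69 and 1.86 on vehicle replicates. Its mean was 0.872 ± 0.372 for isoproterenol and 1.64 ± 0.245 for vehicle (SD, exact two-sided permutation p = 0.114, n = 4 and 3, where 0.0571 is the smallest p possible). For GAPDH it was 0.298 ± 0.0254 for isoproterenol and 0.381 ± 0.0763 for vehicle (exact two-sided permutation p = 0.171, n = 4 and 3), with replicate 4 the lowest isoproterenol array. The part of these measures in the members' values was not tested.

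**Figure D5:**
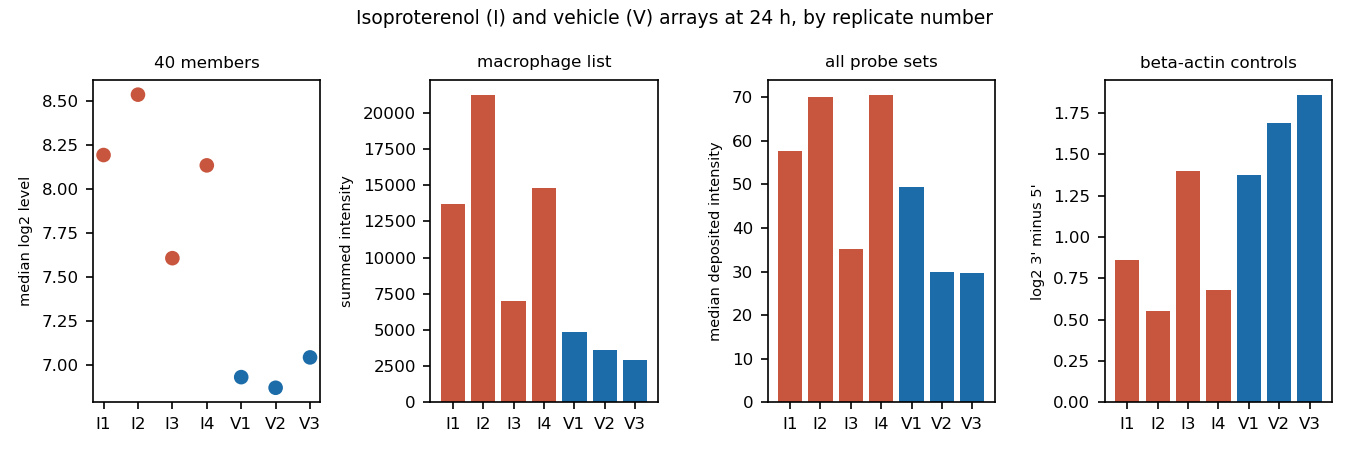
Measures of the 7 arrays at 24 h, isoproterenol (I, red) left of vehicle (V, blue), by replicate number: the median normalized log2 level of the 40 members, the summed intensity of the macrophage list, the median deposited intensity, and the log2 difference between 3′ and 5′ beta-actin probe sets. Isoproterenol replicate 3 has the lowest member median of its group at 7.61, the lowest macrophage sum at 7004 and the highest beta-actin difference at 1.40.

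Lists for other cell types are read against the shares of all probe sets tested, of which 7.33% rose and 5.7% fell at 24 h. Of 22 cardiomyocyte genes other than Hspb7, 1 rose and 3 fell, with sums of 126300 to 147300 on isoproterenol arrays, against 148700 to 151500 on vehicle arrays. Replicate 2 had the lowest and replicate 3 the highest of the isoproterenol sums. Of 13 tested genes for atrial, mesothelial and nerve cells, Nppa among them, 2 rose and none fell, with a median difference of -0.08. Their summed intensity was 7963, 10700, 5175 and 8340 on isoproterenol replicates 1 to 4, against 1606, 4703 and 966.6 on vehicle replicates 1 to 3. The groups did not overlap in this sum, and replicates 3 and 2 were again the lowest and the highest isoproterenol arrays, as they were for the members. A sum of linear intensities is weighted to the brightest genes. Nppa rose by 2.75 while most genes of the list did not pass, so the sum is not read as the content of these cells. Of 6 tested neutrophil genes 1 rose, and their sums were 274.6, 296.2, 167.9 and 189.4 on isoproterenol replicates, against 189.3, 128.8 and 167.8 on vehicle replicates. This sum had the same lowest and highest isoproterenol arrays, with overlap between the groups. Of 22 fibroblast and mural cell genes, 1 rose and 2 fell, and of 18 endothelial genes 1 rose and 1 fell. Of 6 erythroid genes 1 fell and of 8 adipocyte genes 1 fell, with none rising. None of 17 lymphocyte and mast cell genes and none of 10 skeletal muscle genes passed in either direction. The part of these lists in the members' values was not tested.

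The 24 h vehicle arrays were low for the members. Their mean lay below the mean of the other 9 vehicle arrays for 36 of the 40, with a median difference of -0.38, against 0.01 over all probe sets tested, and by more than 0.4 for 20 members. Set against all 12 vehicle arrays, the isoproterenol arrays of 24 h stood higher by a median of 0.88, and 15 of the 40 members reached 1. Those with the largest difference on this footing included Fhl1 at 2.88, Fstl3 at 1.65 and Cdt1 at 1.54. The smallest were 1375343_at at -0.15, Ccdc43 at 0.20, Cbl at 0.34, Slc6a6 at 0.36 and Rcc1 at 0.52. Since the rule subtracts the vehicle mean, low vehicle values helped a probe set to be chosen.

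Probe sets of the same genes that the rule did not take give a further reading from the same RNA. There were 20 for 16 of the member genes. At 24 h 17 lay above vehicle, 3 by at least 1 (for Fhl1, Fstl3 and Msn), and 3 lay within 0.4 of the member probe set. Of 13 with a stronger signal over all arrays than the member probe set, which need not mean more transcript, 10 differed by less than 1. The 3 that did not lie above vehicle were of Nus1, Macroh2a1 and Fhl1, the last too dim to be tested. The other probe sets of Ccne2, Cbl and Ywhab, and the second of Nus1, lay less than 0.4 above vehicle, as did that of Hspb7. Those of Slc6a6, Tpm4, Rfc5 and Pa2g4 differed by 0.94, 0.85, 0.79 and 0.70, and those of Gmppb, Stt3b and Ccdc43 by 0.59, 0.47 and 0.44. Some also lay at least 0.4 above vehicle at another time. At 72 h Rfc5 lay 0.48, Slc6a6 0.43 and Gmppb 0.41 above it. Probe set 1373620_at of Nus1 lay 0.68 above it at 3 h, and Ccne2 0.43 at 1 h. Fhl1, Fstl3, Msn and Tpm4 were described above. Those of Cbl, Ccdc43, Hspb7, Macroh2a1, Pa2g4, Stt3b and Ywhab stayed below 0.4 at 1, 3 and 72 h.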

How the data were processed

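Heart RNA was labelled as cRNA from 10 ug of total RNA and hybridised to 1-colour Affymetrix RAT230_2 arrays, per the labels' protocols. The deposited table holds linear intensity values for 30 arrays; how they were summarised and scaled is not given in the sources used. The arrays' median intensity ran from 21.2 to 70.4, and precision is limited by the number of arrays.

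Values were taken as log2(intensity + 16), which understates changes of dim probe sets, and quantile normalized, which removes a shift shared by most transcripts. The 57 controls were dropped, and testing was limited to probe sets with a deposited intensity of at least 23, the 40th percentile, in at least 3 arrays. limma 3.58.1 in R 4.3.3 fitted 8 group means to all 30 arrays with an intensity trend (22 residual degrees of freedom). Tests were two-sided, with Benjamini-Hochberg adjustment and a threshold of 0.05. The fit was tried on simulated data with independent noise for each probe set and array. That noise had no array order shared across probe sets, as the 24 h arrays had. The simulation therefore could not test the fit under such an order. Levels are normalized log2 values, and differences are isoproterenol minus vehicle.

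Genes were named through platform annotation with updated symbols: 20826 probe sets had 1 gene, 436 several and 9780 none listed. There were 29 gene lists, 19 on pathways and 10 on cell types. Those that bear on the members are described, and some others are given beside them. Each gene had its probe set of highest mean, and member genes were left out. Members and lists were chosen with earlier results of these data known. Values on every array are given for the 15 members furthest from vehicle and up to 4 of a list with at least 3 members. They are also given for the 5 with the smallest and 5 with the largest SD and those nearest the threshold. Some others were chosen after their values were seen. List genes named are the 3 with the smallest adjusted p at 24 h. Pold2 was added to them because it passed the test of the 72 h effect against the 24 h effect. Alternatives varied normalization, pseudocount, filter, limits, fit and arrays.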

Additional observations from a re-analysis of the deposited data

Results flagged for a closer look

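Member levels on isoproterenol arrays were screened with Dixon's test for a single value apart from the rest of its group, which chance meets in about 1 of 20 groups. Of 160 groups (40 members at 4 times), 17 held such a value. At 24 h replicate 3 was apart and low for Rfc5 (6.29), Cdt1 (6.92), Mcm7 (7.57) and Ran (11.07), and replicate 1 for Slc6a6 (6.29). At 1 h the low values were replicate 3 for Rfc5 (4.62), replicate 1 for Cnih4 (7.29) and replicate 4 for Cmss1 (4.56). The high ones at 1 h were replicate 3 for Snrpf (9.23) and for Slc6a6 (6.75), replicate 2 for 1375343_at (9.14) and replicate 4 for 1387402_at (5.59). At 3 h replicate 4 was low for 1375343_at (6.19) and for Ccdc43 (8.12). At 72 h replicate 3 was high for Cnih4 (8.50), and replicate 1 was low for Mcm5 (6.45) and for Ywhab (8.60).

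Among the pathway lists described above, by limma's test of the difference at an adjusted p of 0.05, the isoproterenol effect at 72 h was lower than at 24 h for 7 of the 44 other ribosome biogenesis genes, 4 of the 24 protein synthesis factors, 2 of the 53 replication genes, 2 of the 29 chaperones, 1 of the 38 proteasome genes, 1 of the 54 actin cytoskeleton genes and 1 of the 21 hypertrophy genes; 0.795% of all probe sets tested passed in that direction. Those of them named in the text above were Hells (-1.56) and Pold2 (-0.95) in DNA replication, Nhp2 (-1.36) and Fbl (-1.27) in ribosome biogenesis, Eef1e1 (-0.93) in protein synthesis, Hspb1 (-1.30) among the chaperones, Flnc (-1.02) in the actin cytoskeleton and Csrp3 (-0.63) among the hypertrophy genes. The values are the 72 h effect minus the 24 h effect on the log2 scale.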

How the results depend on the processing

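The number of probe sets meeting the rule, 40, was 276 with no normalization, of which 8 were among the 40, and 25 with a pseudocount of 64, of which 15 were. It was 72 with no level limit and 80 with a limit of 0.6 at the other times; a limit of 0.25, or of 0.4 in both directions (chosen after seeing the data), gave 27. Leaving out each array in turn gave 24, without isoproterenol replicate 2 of 24 h, to 81, without isoproterenol replicate 3. Of the 40, 15 reached a 24 h difference of 1 with a pseudocount of 64, 15 against all 12 vehicle arrays, and 26 to 39 when an array of 24 h was left out. The median difference was 1.81 with no normalization, where the median of all probe sets shifted to 0.47, and 1.08 to 1.37 with an array left out. Against all 12 vehicle arrays, 1375343_at stood at -0.15 in place of 1.15. The 3165 probe sets called at 24 h became 2104 with only the compared arrays in the fit and 1576 to 4417 with an array left out (1576 without isoproterenol replicate 2, 2091 without replicate 4, 2082 and 1857 without vehicle replicate 2 or 3). Their split of 1781 higher and 1384 lower was 3078 and 17 with no normalization and 1668 and 780 with median centring. Leaving out an array gave 207 to 364 called pathway genes, against 292 with all arrays, 16 to 34 rising replication genes and 15 to 30 rising ribosome biogenesis genes. Replicate numbers did not pair the samples (correlation of deviations -0.07 to 0.13); with the number as a replicate block 2621 probe sets were called. The causes of these changes were not tested.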
